A study of Mus musculus with 3 samples.

Results

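The myogenic bHLH factors Myog, Myod1, Myf5 and Myf6 were followed across a promoter array on which PRDM2 and H3K9me2 chromatin of arrested mouse myoblasts had been hybridised. Members were the non-control probes that the array design assigns to these gene names. All 4 genes were present, with 18 probes for Myog, 20 for Myod1, 19 for Myf5 and 20 for Myf6, which makes 77 of 237203 probes. The cells were C2C12, a mouse myoblast line that can withdraw reversibly from the cell cycle, and all 3 arrays came from cells held in G0 in 2% methylcellulose. Chromatin was fixed with 1% formaldehyde, quenched with 0.125 M glycine and precipitated with an antibody against PRDM2 (2 arrays) or against H3K9me2 (1 array). On every array the precipitated (IP) DNA carried Cy5 and its own input DNA carried Cy3, with no exchange of dyes. No array of a control antibody, of dividing cells or of differentiating cells was used here, so every value describes arrested cells of 1 line. Separate cultures are not named for the PRDM2 arrays. The p-values therefore rest only on the spread between these arrays, pooled in part over all promoters or probes, and this spread may be technical.

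The 4 genes encode the basic helix-loop-helix (bHLH) transcription factors of the skeletal muscle lineage. They pair with E proteins, bind the E-box sequence CANNTG and switch on muscle genes. Myf5 and Myod1 act early and commit cells to the muscle fate, Myog drives myoblasts to differentiate and fuse, and Myf6 acts in commitment and in mature fibres. In reversibly arrested myoblasts the differentiation programme is held back. PRDM2 is a zinc finger protein with a PR domain known for methylating lysine 9 of histone H3, and H3K9me2 is lysine 9 carrying 2 methyl groups, a mark of silent chromatin. The series asks which promoters PRDM2 occupies in arrested myoblasts, and the arrays allow the question to be put for these 4 genes probe by probe.

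The value of a probe was the log2 ratio of IP over input signal, with the median probe of each array set to 0. A log2 ratio of 1 is thus a 2-fold higher IP share than at the median probe of that array, not an absolute occupancy. Because GC-rich probes had higher ratios on every array (r across all probes of 0.48 and 0.58 for PRDM2 and 0.32 for H3K9me2), each value was also set against all probes in the same class of GC content, 2 percentage points wide. Of all probes, 71.1 to 78.9% had an IP signal well above background, and 92.8 to 99.0% an input signal. PRDM2 array 1 was scanned on one day, and PRDM2 array 2 and the H3K9me2 array on another.

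The probes on which the results below turn are shown first, with CpG dinucleotides in capitals, so that the GC and CpG content of each can be seen beside its values. Each name gives the gene and the place of the probe in position order on the array.
Myod1 probe 16: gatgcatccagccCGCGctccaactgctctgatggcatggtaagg
Myod1 probe 11: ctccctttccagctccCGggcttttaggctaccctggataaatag
Myod1 probe 18: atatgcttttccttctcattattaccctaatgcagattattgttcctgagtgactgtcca
Myog probe 11: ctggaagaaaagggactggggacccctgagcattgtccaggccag
Myog probe 17: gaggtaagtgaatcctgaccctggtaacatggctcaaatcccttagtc
Myf5 probe 17: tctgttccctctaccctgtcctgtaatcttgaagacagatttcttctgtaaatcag
Myf6 probe 6: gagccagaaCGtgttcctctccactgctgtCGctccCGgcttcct
Myf6 probe 14: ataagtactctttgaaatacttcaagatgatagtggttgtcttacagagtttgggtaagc
Myod1 probe 16 and Myf6 probe 6 were GC-rich, at 60.0% and 62.2%, and held 2 and 3 CpG dinucleotides. Myog probe 11 was also at 60.0% but held no CpG. Myod1 probe 18 and Myf6 probe 14 were AT-rich, at 36.7% and 35.0% GC, and held none. Myf6 probe 14 lies outside the rule for named probes and was chosen after its values were seen.

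On array coordinates (build not given in the sources used here), Myog probes covered chr1:136104219-136107812 and the Myod1 probes chr7:46242241-46245949. The Myf5 and Myf6 probes lay side by side on chromosome 10, at chr10:106888734-106892630 and chr10:106897494-106901295. Start sites could be placed for Myog and Myf5, where probes lay inside the RefSeq promoter sequence (GRCm38.p6). For Myog, the probes then ran from −2168 to 1375 bases, where a minus sign means before the start site. For Myf5, which is on the minus strand, they ran from 1480 to −2357 bases. Distances are from probe centre to start site.

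Averaged over each promoter, PRDM2 was above the median probe at Myog and Myod1 on both arrays, and the test called both. It was lower and not called at Myf5, and near 0 with opposite signs at Myf6. The differentiation factor Myog had promoter means of 0.69 on PRDM2 array 1 and 1.43 on PRDM2 array 2, which is 1.06 ± 0.52 (SD, n = 2) or 2.08-fold. The commitment factor Myod1 had 0.80 and 1.00, or 0.90 ± 0.15 (SD, n = 2). The limma test draws the spread of each promoter towards that of all promoters, which gave an SE of 0.23 at Myog and 0.20 at Myod1. The limma adjusted p, over 16164 promoters, was 0.00239 for Myog and 0.0032 for Myod1. These are not rare calls: 47.3% of all promoters passed the same test in this direction and 1.14% in the other.

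Myf5, the other early commitment factor, had PRDM2 promoter means of 0.44 and 0.45, the closest pair of arrays among the 4 genes. Only the means were close. Across its probes the arrays correlated at 0.18, the lowest of the 4 genes, with probe 17 at 4.93 and 0.31 and probe 14 at −0.64 and 3.69. Myf5 did not pass (0.44 ± 0.01, SD, n = 2, limma SE 0.20, limma adjusted p = 0.0851). Myf6 had 0.23 on array 1 and −0.30 on array 2, which gives −0.03 ± 0.38 (SD, n = 2, limma adjusted p = 0.911). The values of Myf6 lay below those of the other 3 genes on both arrays. Set against all promoters, whose medians were 0.57 and 0.43, Myf6 stood at percentile 27.9 on array 1 and 7.3 on array 2, Myf5 at 41.3 and 51.5, Myod1 at 63.2 and 82.2, and Myog at 56.9 and 93.9.

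The typical promoter was thus itself above the median probe. With the median promoter as 0, the means were 0.56 at Myog, 0.40 at Myod1, −0.06 at Myf5 and −0.53 at Myf6, and none of the 4 passed (limma adjusted p of 0.0921, 0.139, 0.837 and 0.0616); on that scale 17.1% of promoters were called higher and 13.0% lower. The sign of Myf5 and the calls of Myog and Myod1 therefore depend on the point taken as 0. Neither Myog nor Myod1 passed as a median over its probes (limma adjusted p of 0.117 and 0.0978) or after loess within each array (0.0502 and 0.299). Over its highest 3 neighbouring probes each of the 4 genes passed (limma adjusted p of 0.00108 to 0.0389), as did 11407 of the 16164 promoters. Those 3 probes were chosen by the mean of the same PRDM2 arrays that were then tested, so the choice itself favours a pass.

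The order of the genes by PRDM2 mean was Myog, Myod1, Myf5 and Myf6, but the first neighbours in it were not separated. Myog minus Myod1 was −0.11 on array 1 and 0.42 on array 2. Myod1 exceeded Myf5 by 0.36 and 0.55, and Myf5 exceeded Myf6 by 0.20 and 0.75, so neither sign changed. Of the 6 pairs of genes, Myog with Myod1 was the one pair whose sign differed between arrays. No test between genes was run, and on 2 arrays these orders are a description.

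**Figure D1:**
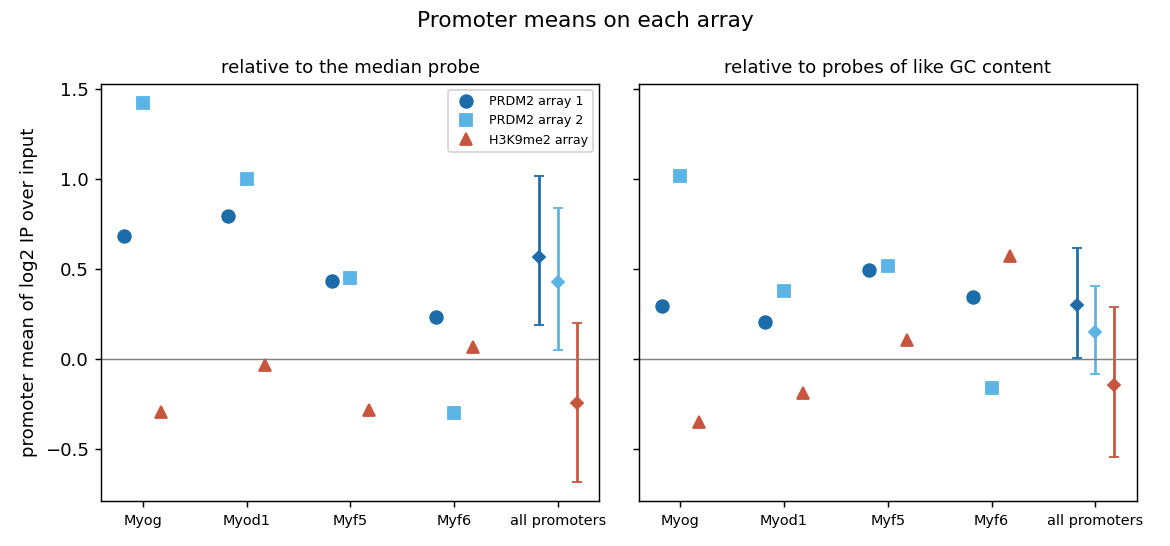
Promoter means of log2 IP over input for each of the 4 genes on each of the 3 arrays, relative to the median probe (left) and to probes of like GC content (right); diamonds with bars give the median and quartiles of all 16164 promoters. The 2 PRDM2 points of Myf5 nearly coincide at 0.44 and 0.45, those of Myog lie apart at 0.69 and 1.43, and those of Myf6 fall on either side of 0.

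The promoters differed in base composition, with a mean probe GC content of 47.3% for Myog, 48.1% for Myod1, 42.3% for Myf5 and 39.7% for Myf6, beside a median of 43.9% over all promoters. Relative to probes of like GC content, the order was no longer the same. Myog had 0.30 and 1.02, or 0.66 ± 0.51 (SD, n = 2, limma adjusted p = 0.0397), and was the one member to pass, beside 15.8% of all promoters called higher and 1.32% lower. Myf5 came next with 0.50 and 0.52 (0.51 ± 0.02, SD, n = 2, limma adjusted p = 0.0959). Myod1 had 0.21 and 0.38 (0.30 ± 0.12, SD, n = 2, limma adjusted p = 0.349) beside an uncorrected mean of 0.90, and Myf6 had 0.35 and −0.16 (limma adjusted p = 0.8).

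Here again the median of all promoters was above 0, at 0.24 over both PRDM2 arrays. On array 1, Myog at 0.30 equalled the median of all promoters, also 0.30, and its difference from them came from array 2, where the median was 0.15. The Myog call relative to like GC content did not hold in 4 of the 5 other settings tried, where the limma adjusted p ran up to 0.615. Among the 1872 promoters within 1 percentage point of its GC content, Myod1 stood at percentile 48.9 of the uncorrected PRDM2 mean, next to their median of 0.91. The same percentile was 72.3 for Myog, 61.4 for Myf5 and 29.4 for Myf6.

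**Figure D2:**
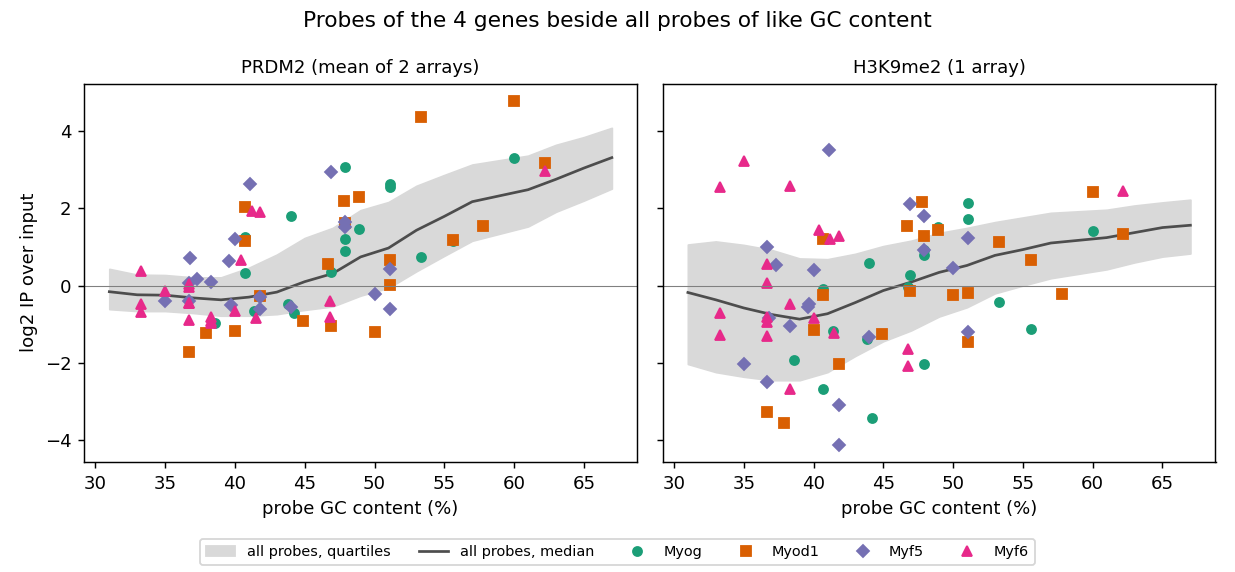
Log2 IP over input of each member probe against its GC content, for the mean of the PRDM2 arrays (left) and the H3K9me2 array (right); the line and band give the median and quartiles of all probes in the same GC class. The PRDM2 median of all probes climbs above about 40% GC, while Myf5 probe 17 (41.1% GC) and Myf6 probe 14 (35.0% GC) stand far above the H3K9me2 band.

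Within Myod1, the highest PRDM2 means, at probes 16, 11, 14 and 13, fell in a stretch of the array from probe 9 to probe 16. Outside it, probe 20 was also high. Probe 16, at chr7:46245303-46245347, had 5.59 on PRDM2 array 1, 3.98 on array 2 and 2.43 on the H3K9me2 array. It was high on all 3 arrays and was the one member probe called against 0 (limma adjusted p = 0.0498), which is 1.3% of the members beside 4.98% of all probes called higher and 0.00381% lower. The call was lost in 5 of 6 other settings, and with loess 5 member probes were called. Among 4386 probes of like GC content it stood at percentiles 96.1, 87.9 and 87.3.

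Probe 11 of Myod1, at chr7:46244448-46244492, had 3.21 and 5.51 with PRDM2 and 1.12 with H3K9me2 (limma adjusted p = 0.0722). Its input signal relative to probes of like GC content was −1.56, −0.92 and −1.32 log2 units on the 3 arrays, and the part of a low input in its ratio was not tested. Between these, all 8 probes from 9 to 16 were above 0 on both PRDM2 arrays, a range chosen after the values were seen. Probe 14, also outside the rule, held 5 CpG dinucleotides at 62.2% GC and had 2.64, 3.73 and 1.34, which are only percentiles 49.8, 77.0 and 48.8 of its GC class.

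The next 3 probes of Myod1 fell below 0 on every array. The lowest, probe 18, had −1.18, −2.27 and −3.27, at percentiles 8.7, 0.4 and 14.7 of probes of like GC content. Its input was 1.17, 0.90 and 2.19 log2 units above that of its GC class. Without probe 16, the promoter means of Myod1 were 0.55 and 0.85. Over the whole of Myod1, 11 of 20 probes were above 0 on both PRDM2 arrays, 7 were below 0 on both and 2 had opposite signs. The correlation of the PRDM2 arrays across its probes was 0.79, beside quartiles of 0.51, 0.67 and 0.79 in 8330 promoters with 15 to 25 probes. This correlation is a description over 20 probes that range from 36.7 to 62.2% in GC content.

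**Figure D3:**
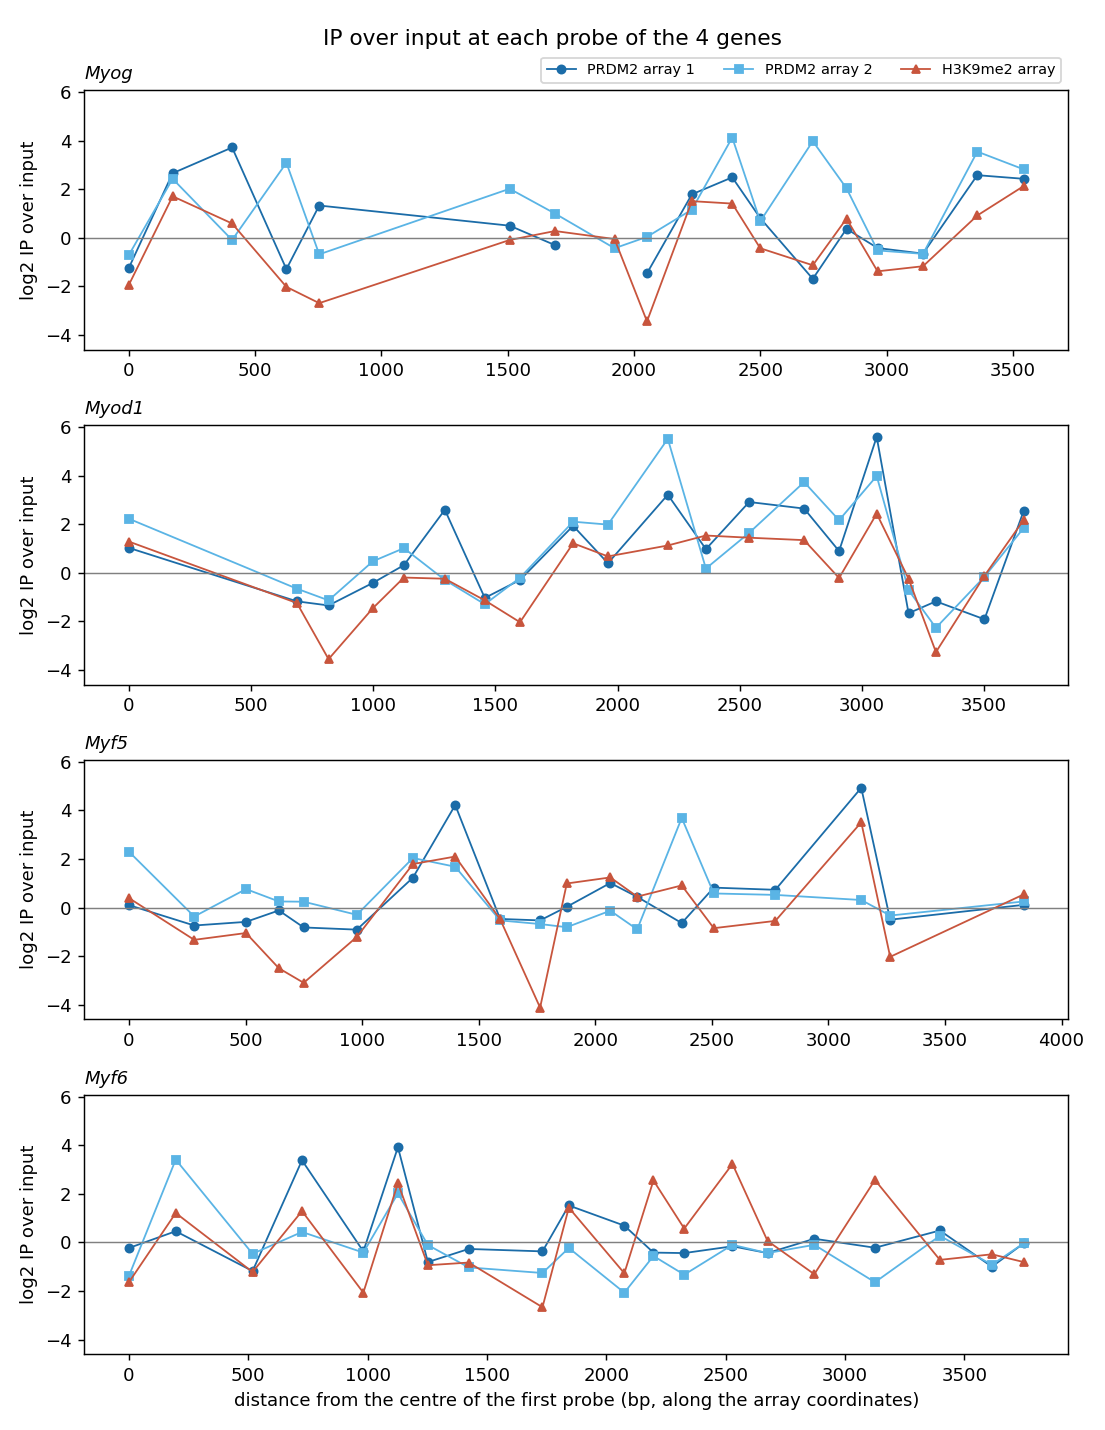
Log2 IP over input at each probe of Myog, Myod1, Myf5 and Myf6, in position order, on each of the 3 arrays; the gap in the Myog line is the probe flagged as an outlier on PRDM2 array 1. Single points of each gene are high on 1 PRDM2 array only, such as Myod1 probe 6 at 2.59 and −0.30, and 3 probes in the right part of Myf6 are high in H3K9me2 alone.

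Within Myog, most probes at a log2 ratio of 1 or more on both PRDM2 arrays lay after the start site. Upstream, probe 2 at −1995, which is outside the rule and was chosen after its values were seen, had 2.66 and 2.43 with PRDM2 and 1.71 with H3K9me2. Probe 11, centred 221 bases after the start site, had 2.49 and 4.13 with PRDM2 and 1.41 with H3K9me2. Probe 17, at 1192 bases after it, had 2.58, 3.55 and 0.92, and although its GC content was only 47.9% it stood at percentiles 82.7 and 96.1 of its GC class on the PRDM2 arrays. Neither passed the test of single probes (limma adjusted p of 0.0756 and 0.0593). Probe 18, the last of Myog, was the highest of its bright probes in H3K9me2, at 2.13, with 2.43 and 2.82 for PRDM2.

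Just before the start site, Myog was low at probe 9 on PRDM2 array 1 and the H3K9me2 array, but not on PRDM2 array 2. The RefSeq sequence of the 250 bases before the site (GRCm38.p6, chr1:134289754-134290003, plus strand) is shown with its CANNTG matches in capitals, because this is the stretch that the proximal probes cover and the motif is the one these factors bind.
Myog upstream: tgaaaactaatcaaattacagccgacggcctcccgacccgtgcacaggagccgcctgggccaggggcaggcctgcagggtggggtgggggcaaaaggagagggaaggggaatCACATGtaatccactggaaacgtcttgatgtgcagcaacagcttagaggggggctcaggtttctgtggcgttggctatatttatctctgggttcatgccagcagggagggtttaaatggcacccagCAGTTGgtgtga
The search on both strands found 2 matches, starting at −138 and −12 from the start site, in a sequence of 56.4% GC. Of all RefSeq promoters in the table, 66.2% hold CANNTG in this window, and the same window of Myf5 holds none. Probe 9, which covers the match at −138, had −1.46 and 0.04 with PRDM2 and −3.44 with H3K9me2. That H3K9me2 value was at percentile 4.6 of its GC class and was the lowest of all Myog probes. The PRDM2 values of probe 9 were at percentiles 6.2 and 51.7 of that class. Probe 8, at −245 and an outlier on PRDM2 array 1, had −0.43 on PRDM2 array 2 and −0.05 with H3K9me2. Probe 10, 61 bases after the start site and the nearest to it, was above 1 on all arrays, at 1.79, 1.16 and 1.51.

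The PRDM2 arrays disagreed at several Myog probes, which were named after their values were seen. Probe 3 had 3.72 on array 1 and −0.09 on array 2. Probe 4 had −1.29 and 3.09, and probe 13 had −1.69 and 3.98. In each of these, 1 array gave a high value and the other a value at or below 0. A difference of over 2 between the arrays was seen at 4 Myog, 2 Myod1, 4 Myf5 and 3 Myf6 probes, or 16.9% of the members beside 13.7% of all probes. The correlation of the arrays was 0.21 across the 17 Myog probes with a value on both and 0.18 across the 19 Myf5 probes, below the lower quartile of 0.51 in promoters of like probe number. Without its top probe, Myog kept promoter means of 0.57 and 1.26.

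**Figure D4:**
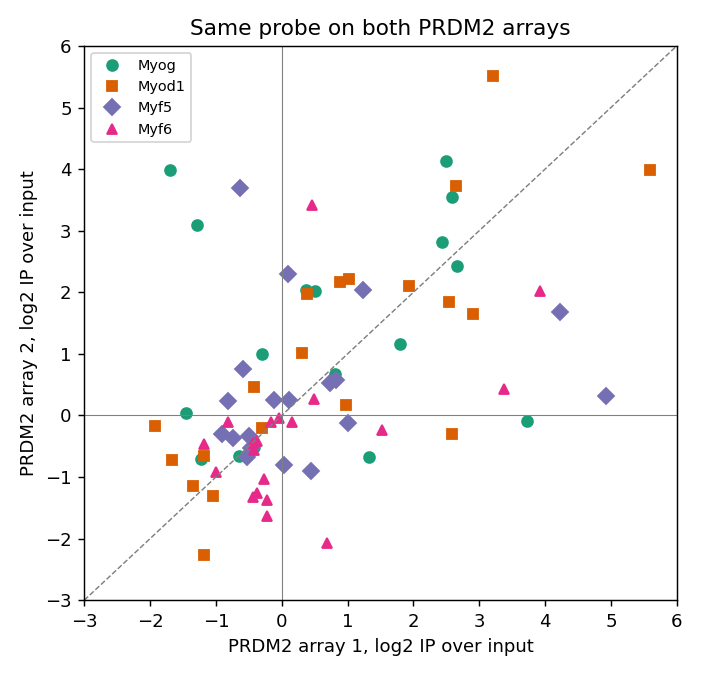
Log2 IP over input of the member probes on PRDM2 array 1 (x axis) and PRDM2 array 2 (y axis); the dashed line marks equal values. Most Myod1 probes lie near the line, with 2 over 2 units apart, while Myog and Myf5 probes reach 3 to 4 on array 2 at values below 0 on array 1, and Myf5 probe 17 reaches 4.93 on array 1 at 0.31 on array 2.

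The Myf5 mean rested on few probes. Probe 8, centred 81 bases after the start site, had 4.22 on PRDM2 array 1, 1.68 on array 2 and 2.10 on the H3K9me2 array, at percentiles 93.8, 81.0 and 91.3 of its GC class. Its input relative to that class was −1.58, −1.60 and −1.02 log2 units. It and its neighbour, probe 7, were the 2 Myf5 probes at a log2 ratio of 1 or more on both PRDM2 arrays.

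Myf5 probe 17, at −1660 from the start site, had 4.93 on PRDM2 array 1 but 0.31 on array 2, so that the arrays differ here by more than at most member probes. On the H3K9me2 array it had 3.51, the highest H3K9me2 value of all 77 members and percentile 99.6 of 26576 probes of like GC content. Probe 14, named after its values were seen, showed the reverse, with −0.64 on array 1 and 3.69 on array 2. Probe 9, at −112 from the start site, was even across the arrays at −0.47, −0.53 and −0.48. The lowest PRDM2 mean was at probe 6, 503 bases after the start site, with −0.91 and −0.30. Without its top probe, Myf5 had 0.23 and 0.38.

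Of the 20 Myf6 probes, 13 were below 0 on both PRDM2 arrays and 4 above 0 on both. Most Myf6 probes were in GC classes that start at 32 to 40%, where the PRDM2 medians of all probes were themselves −0.24 to −0.37. Relative to probes of like GC content, the PRDM2 mean of Myf6 was 0.10. The highest PRDM2 ratios of Myf6 were at the low-coordinate end. Probe 6 had 3.92 and 2.02 with PRDM2 and 2.44 with H3K9me2, and was the 1 Myf6 probe at a log2 ratio of 1 or more on both PRDM2 arrays. As a probe of 62.2% GC, it stood at percentile 77.2 of its class on array 1 but at 24.9 on array 2. Probe 2 had 0.46 and 3.41, and the lowest probe, 19, had −1.0 and −0.92. Only 6 of the 20 Myf6 probes had IP and input well above background on all arrays, beside 16 for Myog, 15 for Myod1 and 15 for Myf5. In the PRDM2 IP channel, 12 and 8 Myf6 probes on the 2 arrays were well above background, which limits what can be read from their order.

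Over all members, 15 of the 77 probes (5 of Myog, 7 of Myod1, 2 of Myf5 and 1 of Myf6) were at a log2 ratio of 1 or more on both PRDM2 arrays. This is 19.5%, beside 20.5% of all probes and 18.6% of probes of like GC content. On all 3 arrays, 14 probes or 18.2% reached it, beside 14.7% of all probes and 13.3% of probes of like GC content. The count over the 4 genes was thus near that of the whole array, and Myog and Myod1 together held 12 of the 15. By gene, the share was 27.8% at Myog and 35.0% at Myod1, beside 23.5% and 28.2% of probes of like GC content. At Myf5 and Myf6 it was below that of probes of like GC content, which for Myf5 was 12.3%. Whether the split between genes goes beyond their GC content was not tested. An unadjusted limma p under 0.05, in either direction, was reached by 19 member probes, 11 of them of Myod1, or 24.7% beside 27.6% of all probes. Among these, Myod1 probes 3, 7 and 18 were below 0, at PRDM2 means of −1.24, −1.17 and −1.73, and the rest were above 0.

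H3K9me2, measured on 1 array and so without a spread of its own, was near or below the median probe at the promoter level. The means were −0.29 at Myog, −0.03 at Myod1, −0.28 at Myf5 and 0.07 at Myf6, beside a median of −0.24 over all promoters. The direction turned with normexp, to 0.59 at Myog, 0.81 at Myod1 and 0.52 at Myf5. Over the 3 neighbouring probes highest in PRDM2, these genes had 0.83, 1.18 and 1.14. Percentiles among all promoters ran from 46.7 (Myog) to 68.1 (Myf6). Relative to probes of like GC content, Myf6 was the highest at 0.58, Myf5 had 0.11, Myod1 −0.19 and Myog −0.34. That order was not kept in 2 of the 4 other settings: with normexp Myf5 had 0.50 and Myf6 0.40, and as a median over probes Myf5 had 0.32 while Myog and Myf6 had 0.16 each. A log2 ratio of 1 or more was seen at 23 of 77 probes (4 of Myog, 8 of Myod1, 4 of Myf5 and 7 of Myf6), or 29.9%, beside 30.2% of all probes and 28.9% of those of like GC content.

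Of the 7 Myf6 probes at 1 or more in H3K9me2, probes 2, 4, 6 and 10 (1.21, 1.29, 2.44 and 1.43) were also above 0 on PRDM2 array 1. The other 3 lay in the high-coordinate part and were below 0 on both PRDM2 arrays. These, 4 and 10 were named after their values were seen. Probe 14 had 3.23 with H3K9me2 while PRDM2 gave −0.16 and −0.10. Probe 12 had 2.55 beside PRDM2 values of −0.42 and −0.56, and probe 17 had 2.57 beside −0.22 and −1.64. Probes 14, 12 and 17 stood at percentiles 97.5, 90.7 and 95.2 of H3K9me2 in their GC classes. On the PRDM2 arrays they stood at 55.0 and 59.5, at 39.3 and 33.3, and at 58.2 and 3.8. The PRDM2 IP signal was not well above background at probes 12 and 14 on either array, nor at probe 17 on array 2. No other gene of the 4 showed probes above 2 in H3K9me2 and below 0 on both PRDM2 arrays.

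The same stretch had a low input on the H3K9me2 array. Input was not well above background there at 6 of 20 Myf6 probes (13, 15, 16, 18, 19 and 20), whereas on the PRDM2 arrays all 20 were. Averaged over Myf6, input on the H3K9me2 array was −0.95 log2 units relative to probes of like GC content, beside −0.09 and −0.11 on the PRDM2 arrays and −0.08 to 0.07 for the other 3 genes. Relative to its class, the input was −1.62 at probe 14 and −0.92 at probe 12, while it was −0.03 at probe 17. With the dim-input probes left out, H3K9me2 at Myf6 relative to like GC content was 0.95 instead of 0.58. As a median over all Myf6 probes, with dim-input probes kept, it was 0.16. The part of the low input in the H3K9me2 value of Myf6 was not tested.

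PRDM2 and H3K9me2 were compared directly on the same promoter means, assuming for the lone H3K9me2 array the spread of the PRDM2 arrays. PRDM2 exceeded H3K9me2 by 1.35 (SE 0.39) at Myog and by 0.93 (SE 0.35) at Myod1, with limma adjusted p of 0.0215 and 0.0484. The difference was 0.72 (SE 0.35, limma adjusted p = 0.0981) at Myf5 and −0.10 (SE 0.37, limma adjusted p = 0.82) at Myf6. Of all promoters, 42.2% were called higher in PRDM2 and 1.60% higher in H3K9me2, so that 2 of 4 is close to the array as a whole. On PRDM2 array 2, which was scanned on the same day as the H3K9me2 array, the differences were 1.72, 1.03, 0.73 and −0.37 for Myog, Myod1, Myf5 and Myf6, and on PRDM2 array 1 they were 0.98, 0.83, 0.72 and 0.16.

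The sizes of these differences depend on the point taken as 0 and on the background correction. With the median promoter as 0 they were 0.61 at Myog, 0.19 at Myod1, −0.01 at Myf5 and −0.84 at Myf6, and none passed (limma adjusted p of 0.44, 0.801, 0.987 and 0.207). With normexp in place of the scanner software's background subtraction they turned to −0.56 at Myog, −0.77 at Myod1 and −0.56 at Myf5. The same correction took PRDM2 over input to 0.03 at Myog and 0.04 at Myod1 (limma adjusted p of 0.952 and 0.939). The call of PRDM2 over H3K9me2 at Myod1 was lost in each of the 9 other settings (limma adjusted p of 0.0558 to 0.801), and that at Myog in 4 of 9.

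Along the promoters, PRDM2 and H3K9me2 ratios moved together. The correlation of the PRDM2 mean with H3K9me2 across probes was 0.80 at Myog, 0.80 at Myod1, 0.74 at Myf5 and 0.44 at Myf6, beside quartiles of 0.54, 0.66 and 0.74 over promoters of 15 to 25 probes. The PRDM2 mean also correlated with GC content at 0.66, 0.66, 0.20 and 0.58 in the same genes. These are descriptions over 17 to 20 probes, which share base composition. PRDM2 array 1, scanned on the other day, correlated with H3K9me2 at 0.74, 0.75, 0.72 and 0.40, and PRDM2 array 2, scanned on the same day, at 0.51, 0.75, 0.37 and 0.34.

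E-boxes were looked for in the probes because the 4 factors bind CANNTG and regulate each other. A match was held by 3 Myog, 3 Myod1, 7 Myf5 and 6 Myf6 probes, or 24.7% of the members beside 20.6% of all probes of the same lengths. The forms CATCTG or CAGATG were in 6 member probes (7.8%, beside 3.7%). CACCTG or CAGGTG were in 2 (2.6%, beside 2.8%), and CAGCTG was in 1 (1.3%, beside 1.8%). Myod1 probe 16 holds a match (CAACTG), whereas the 2 highest Myog probes and Myod1 probe 11 hold none. A match describes the letters only.

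Genes that act with the myogenic factors were read from the same fit. Of the E proteins, their dimerisation partners, PRDM2 was called higher at 2 of 3: Tcf12 had 1.05 and 1.42 (1.24 ± 0.26, SD, n = 2) and Tcf3 had 1.19 and 0.60, while Tcf4 had 0.24 and 0.57 and did not pass. Of the inhibitors, 12 of 18 tested were called higher. The highest were Sirt1, a deacetylase, at 2.03 and 1.51, and the Notch effector Hey1 at 1.51 and 1.59, and the lowest was the deacetylase Hdac4 at −0.18 and 0.02. Their medians of 0.90 and 0.82 were above the 0.50 of all promoters, whose call rate was the 47.3% given above.

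Upstream regulators of the 4 genes were also called higher at 12 of 18, with a median of 0.84. The homeobox factor Lbx1, which marks migrating muscle precursors, had 1.89 and 1.92, and the satellite cell factor Pax7 had 2.18 and 1.32. Pax7 kept 1.31 relative to probes of like GC content (limma adjusted p = 0.000274), beside 0.66 for Myog. Target genes, which encode contractile, receptor and adhesion proteins of muscle, were called higher at 9 of 28 (32.1%), with a median of 0.27. Among them the cadherin Cdh15 had 1.51 and 1.14, the myosin-binding protein gene Mybph had 1.46 and 0.87, and the troponin gene Tnnc2 had −0.06 and −0.30.

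bHLH factors that specify other tissues were called higher at 19 of 31 (61.3%), with a median of 0.86; the highest were Lyl1 (1.86 and 1.19), a blood factor, and Tcf15 (1.61 and 1.42), a factor of the paraxial mesoderm, and the lowest was Mitf (0.38 and −0.33). No promoter of the 5 lists was called lower by limma, beside 1.14% of all promoters. In that direction 0 were at an unadjusted p under 0.05, beside 323 of all 16164 promoters. At such rates, few or none would be looked for in lists of 3 to 31 promoters. Relative to probes of like GC content, 3 of 18 inhibitors, 4 of 18 upstream regulators, 1 of 28 target genes and 9 of 31 other bHLH factors were called higher by limma, beside 15.8% of all promoters. The 3 E proteins did not pass on that scale (limma adjusted p of 0.0969 for Tcf12, 0.523 for Tcf3 and 0.114 for Tcf4). By the uncorrected PRDM2 mean, the 4 myogenic factors, with a median of 0.67, lay between the target genes and the other lists. Relative to probes of like GC content their median was 0.40. On that scale they lay below the E proteins (0.49) and above the other lists (0.23 to 0.33).

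The promoters closest to each member over the 3 arrays, by Euclidean distance of the promoter means, were Prpf38b, Dtx2 and Prmt6 for Myog, at distances of 0.077 to 0.095. For Myod1 they were Sphk1, Ei24 and Bahcc1, for Myf5 Mrpl37, Gucy1a3 and Mgat1, and for Myf6 Mcpt1 and Ugt2b34. Within a distance of 0.25 lay 29 promoters for Myog, 86 for Myf6, 281 for Myod1 and 500 for Myf5. Myog, with its higher value on PRDM2 array 2, thus had the fewest close promoters of the 4, and Myf5 the most.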

How the data were processed

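Processed intensities, as deposited, were made per the file headers with Agilent Feature Extraction (version 10.5.1.1), and the deposited log10 ratios are of red over green processed signal, used as a check. The deposited mean and local background intensities, not normalized per the file headers, entered the normexp alternative. Deposited flags of 0 or 1 marked outlier and well-above-background spots. The authors' deposited value table is on a log2 scale, a unit inferred from its slopes of 0.993, 0.991 and 1.019 on the log2 scanner ratios. Its correlations with those ratios were 0.965, 0.940 and 0.972. The column medians of the value table are 0.124, 0.103 and 0.278, and its centring and tool are not stated by the labels or files used here.

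The log2 ratio of red (IP) over green (input) processed intensity was centred on the median of 237203 non-control probes of each array. A probe flagged as an outlier on any array was left out of promoter means on all arrays (1 Myog probe). Promoters were probes of 1 gene name, split at gaps over 10000 bp, with at least 3 probes (16164 tested). GC classes under 200 probes were joined to a neighbour. Tests were limma 3.58.1 (lmFit, eBayes) in R 4.3.3, Benjamini-Hochberg adjusted over all promoters or probes at 0.05, checked on simulated data; Python 3.11.15, numpy 2.4.6, pandas 2.3.3, matplotlib 3.10.9 and data.table (version 1.17.8) were also used. With 3 arrays, their number limits the precision. Named probes were, per gene, the 2 with the highest PRDM2 mean and the 1 highest in H3K9me2 among probes well above background in both channels on all arrays, and the 1 with the lowest PRDM2 mean; per list, the 2 highest and 1 lowest promoters; and the 3 nearest promoters, predicted genes passed over; 2 promoters that the rule named are not reported here. Members, lists and rules were chosen with earlier results of these data known. Sequences came from the deposited probe column and, for promoters, RefSeq (GRCm38.p6, matched for Myog and Myf5).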

Additional observations from a re-analysis of the deposited data

Results flagged for a closer look

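The test of PRDM2 against H3K9me2 called 2 of the 4 members, beside 42.2% of all promoters; the lone H3K9me2 array has no spread of its own, and that of the PRDM2 arrays was assumed for it. PRDM2 exceeded H3K9me2 by 1.35 at Myog (limma adjusted p = 0.0215) and by 0.93 at Myod1 (limma adjusted p = 0.0484), on both PRDM2 arrays in each case. At Myf5 the PRDM2 values were above 0 on both arrays and the H3K9me2 value was below 0, a difference of 0.72 that did not pass (limma adjusted p = 0.0981). The Myod1 call was lost in 9 of 9 alternatives, and with normexp the differences turned to −0.56 at Myog and −0.77 at Myod1.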

How the results depend on the processing

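No paired analysis was possible because the H3K9me2 array carries no replicate number. PRDM2 promoter calls (7823) became 0 with normexp (1962 at unadjusted p under 0.05), 4717 with loess (3485 higher, 1232 lower), 4864 with the median promoter as 0 (2769 and 2095) and 897 as a median over probes. Calls of PRDM2 minus H3K9me2 (7075) became 0 with normexp (1812 unadjusted), 2173 with loess (677 higher in PRDM2, 1496 in H3K9me2), 597 with the median promoter as 0 (113 and 484), 0 as a median over probes (3741 unadjusted), 0 over the highest 3 neighbouring probes (3589 unadjusted) and 4140 in the authors' value table. Calls relative to like GC content (2760) became 0 with normexp (1662 unadjusted) and 25 as a median over probes. Probe calls (11789) became 17710 with loess (12562 higher, 5148 lower), and 0 by limma with normexp, GC classes, bright input only, the value table or a variance trend (40884, 44089, 61691, 56773 and 71856 unadjusted); the 1 called Myod1 probe was lost in those 5. The highest 3 probes were chosen on the same PRDM2 values that were tested, which favours calls in that setting, here and in the counts below. Reversed values were, for PRDM2, Myf5 −0.048 (normexp) and −0.057 (median promoter), and Myf6 0.092 (normexp), 1.49 (highest 3, limma adjusted p = 0.0389) and 0.091 (bright input). For PRDM2 minus H3K9me2 they were Myog −0.56, Myod1 −0.77 and Myf5 −0.56 (normexp), Myf5 −0.015 (median promoter), and Myf6 0.28 (median over probes) and 0.94 (highest 3). Relative to like GC content they were Myod1 −0.077 and Myf6 −0.065 (median over probes). PRDM2 calls held in 5 of 9 alternatives at Myog (limma adjusted p of 0.000798 to 0.952) and at Myod1 (0.00108 to 0.939). Some of those 5 hardly altered the tested values. No minimum of probes and a variance trend left the PRDM2 means of both genes unchanged, and bright input gave 1.0564 and 0.9001 beside 1.0561 and 0.8998. The call of PRDM2 minus H3K9me2 held in 5 of 9 at Myog and 0 of 9 at Myod1 (limma adjusted p of 0.0558 to 0.801). That of Myog relative to like GC content held in 1 of 5 (0.0462 to 0.615). With either PRDM2 array left out, PRDM2 ranged from 0.69 to 1.43 at Myog, 0.80 to 1.00 at Myod1, 0.44 to 0.45 at Myf5 and −0.30 to 0.23 at Myf6, as values with no test. Of 170 alternative values of single genes, 99 kept direction and call, or for values with no test lay within the spread, and the causes of the other changes were not tested.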
